A study of Mus musculus with 2 samples.

Results

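ISL1 peaks whose nearest transcription start site (TSS) belonged to a gene with a provisional name, or to a microRNA gene, made up 311 of the 1483 peaks of the list (21.0%). They were listed under 203 of 1003 nearest genes. The peaks were chosen by the name of the nearest gene alone: 194 were listed under 119 RIKEN clone genes (names ending in Rik), 78 under 52 predicted genes (names starting with Gm) and 39 under 32 microRNA genes (Mir). One RIKEN gene, 2810442N19Rik, was left out of this selection together with its 4 peaks, which count among the other peaks of the list. The study profiled the LIM-homeodomain factor ISL1 by chromatin immunoprecipitation and sequencing in sinoatrial node cells, the pacemaker cells of the heart. The cells came from ICR mice carrying Hcn4-H2BGFP, a nuclear green fluorescent reporter placed at the gene of the main pacemaker channel, at postnatal day 1 to 3, and were sorted by their fluorescence. The series held 2 libraries from such cells, 1 of ISL1 and 1 of input DNA, and the peaks of the ISL1 library were analysed here. A peak list holds no expression values, so the cell type could not be checked against marker genes.

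RIKEN names come from a collection of mouse full-length cDNA clones, and Gm names are numbers given to gene models that have no other name. Most genes of both kinds yield long noncoding RNAs or pseudogene transcripts, some of which are transcribed beside developmental regulators, while a minority encode proteins. MicroRNAs are short RNAs cut from hairpins, and they lower the output of messenger RNAs that pair with the seed near their 5′ end. Many microRNA hairpins lie in introns of protein-coding genes. Because the listing goes by the nearest start site, a short gene inside or beside a long one can give its name to a peak that lies within the long one.

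The microRNA sequences below are shown so that the microRNA genes can be compared by seed; whether a peak acts on the gene it is listed under was not tested. Mature sequences of 28 of the 32 microRNA genes were matched in RefSeq (GRCm38.p6), 41 sequences with 39 different seeds. The sequences printed are those of the microRNA whose peak had the highest score, of Mir204, of genes whose seed is shared with another gene here or with at least 6 other mature names, and of the matched genes within 5 kb of a peak. Capitals mark the seed, bases 2 to 8 from the 5′ end, and all sequences run 5′ to 3′ with positions in GRCm38.p6.
mmu-let-7j (Mirlet7j, chr3:140028281-140028304, + strand): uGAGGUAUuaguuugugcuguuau
mmu-miR-204-5p (Mir204, chr19:22750610-22750631, + strand): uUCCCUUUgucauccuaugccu
mmu-miR-204-3p (Mir204, chr19:22750649-22750669, + strand): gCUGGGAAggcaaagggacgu
mmu-miR-181a-5p (Mir181a-1, chr1:137966468-137966490, + strand): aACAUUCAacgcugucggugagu
mmu-miR-181b-5p (Mir181b-1, chr1:137966650-137966673, + strand): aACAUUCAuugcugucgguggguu
mmu-miR-125b-5p (Mir125b-1, chr9:41581940-41581961, + strand): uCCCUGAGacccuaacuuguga
mmu-miR-125b-5p (Mir125b-2, chr16:77646279-77646300, + strand): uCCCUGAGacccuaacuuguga
mmu-miR-6341 (Mir6341, chr1:12426016-12426038, + strand): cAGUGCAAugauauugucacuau
mmu-miR-6419 (Mir6419, chr2:17563541-17563562, + strand): cAGCAGCAaucugacacaugga
mmu-miR-1929-5p (Mir1929, chr10:44359692-44359714, + strand): uUCUAGGAcuuuauagagcagag
mmu-miR-1929-3p (Mir1929, chr10:44359734-44359755, + strand): cAGCUCAUggagaccuaggugg
mmu-miR-1895 (Mir1895, chr3:134240515-134240536, - strand): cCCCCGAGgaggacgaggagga
mmu-miR-8095 (Mir8095, chr16:22532128-22532149, - strand): aAAGGAUUcugcugucuguccc
mmu-miR-8110 (Mir8110, chr8:89024791-89024811, + strand): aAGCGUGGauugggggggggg

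Only 2 seeds were held by more than 1 of these genes. Mir181a-1 and Mir181b-1 shared ACAUUCA in their 5p arms, and Mir125b-1 and Mir125b-2 gave the same 5p sequence. The seed of miR-6419, AGCAGCA, was shared with 9 other mature microRNAs of the RefSeq table, among them mmu-miR-15a-5p, mmu-miR-16-5p and mmu-miR-195a-5p, and that of miR-6341 with 6, among them mmu-miR-130a-3p and mmu-miR-301a-3p. The let-7j seed differs from that of the main let-7 family: its bases 2 to 7 were shared with 12 other mature names, but all of bases 2 to 8 with mmu-miR-202-3p only.

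The peaks had the same median score and quartiles as the rest of the list. The deposited peak score, a number per peak given by the authors, had a median of 15.1 with quartiles of 12.3 and 17.8, and the other 1172 peaks had the same 3 values. The range was 8.21 to 52.0 against 8.21 to 84.8. By class, the median and upper quartile were 15.1 and 19.2 for RIKEN clone peaks, 13.7 and 16.4 for predicted gene peaks and 15.1 and 17.8 for microRNA peaks. All scores of the list were whole multiples of a step of 1.37. If a step is 1 sequenced tag, the lowest peak here rests on 6 tags, the median on 11 and the highest on 38. The median peak lay 91.3 kb from the TSS (quartiles 33.4 and 217 kb), against 82.9 kb (30.1 and 192 kb) for the other peaks. Peaks within 100 kb numbered 163 (52.4%, exact Clopper-Pearson 95% interval 46.7 to 58.1) against 56.2% of the others (53.3 to 59.1). With 1 library and no replicate there was no test: medians and shares are given beside those of the other peaks, and the intervals cover counting error only.

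Intergenic placement was more frequent than in the rest of the list. Of the 311 peaks 202 were intergenic (65.0%, 59.4 to 70.3), against 596 of the other 1172 (50.9%, 47.9 to 53.8). Among other peaks listed under noncoding transcripts, 36 of 62 were intergenic (58.1%, 44.8 to 70.5), an interval that overlaps that of the 311. Intronic peaks numbered 97 (31.2%, 26.1 to 36.7) against 508 (43.3%, 40.5 to 46.2). The promoter annotation was carried by 8 (2.57%, 1.12 to 5.01) against 40 (3.41%, 2.45 to 4.62). Repeats were named for 33 peaks (10.6%, 7.42 to 14.6) against 83 (7.08%, 5.68 to 8.70). Of the 33, 11 were LINE, 11 LTR, 8 SINE and 3 DNA elements. A peak described below without mention of a repeat may still lie on one. Peaks lay downstream of the TSS in 170 cases (54.7%, 48.9 to 60.3) and upstream in 141, against 59.9% downstream (57.0 to 62.7) in the rest.

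**Figure D1:**
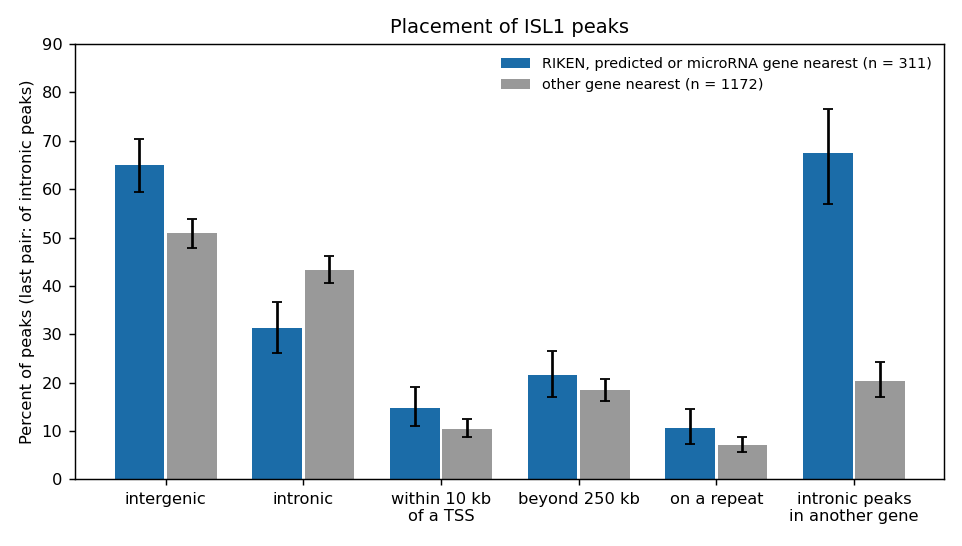
Percent of peaks by placement, for the 311 peaks nearest to a RIKEN, predicted or microRNA gene and the 1172 other peaks of 1 library; bars are shares and error bars exact 95% intervals for counting error. The last pair counts only intronic peaks with a matched host transcript. It shows 67.4% against 20.4% lying inside a gene other than the one they are listed under. Gene length and type were not matched between the sets.

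By the prefix of the nearest transcript, 274 peaks were listed under noncoding transcripts (NR, 88.1%) and 37 under coding ones (NM). By gene, 174 had noncoding transcripts only, 28 coding only, and 2010111I01Rik both. The file's gene type gave 163 genes as noncoding RNA, 11 as pseudogenes and 29 as protein-coding. Peaks of coding transcripts lay at a median of 71.3 kb and those of noncoding transcripts at 92.2 kb. Beyond 250 kb there were 2 of 37 coding peaks (5.41%, 0.661 to 18.2) and 65 of 274 noncoding ones (23.7%, 18.8 to 29.2). Of the 65, 9 were listed under 1 gene, 1700019E08Rik, and the intervals take peaks as independent. Among the other peaks of the list the shares were 203 of 1110 coding ones (18.3%, 16.1 to 20.7) and 13 of 62 noncoding ones (21.0%, 11.7 to 33.2). Median distances there were 84.0 kb for coding and 57.7 kb for noncoding peaks. Both classes had a median score of 15.1, but the highest coding score was 26.0. All 14 peaks with a score above 30 were listed under noncoding genes. They were 5.11% of the 274 noncoding peaks (2.82 to 8.42), and the interval for the 37 coding ones was 0.0 to 9.49%, which overlaps. Among the other peaks of the list, 36 of 1110 coding ones (3.24%) and 2 of 62 noncoding ones (3.23%) scored above 30. Coding scores there reached 84.8.

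Some of these names have since been replaced. In the RefSeq table, 202 of the 203 genes were found by gene identifier, and 13 of them, with 21 peaks, carry a symbol that is no longer of these kinds; 9 of the 13 are protein-coding. Among them 2010111I01Rik is Aopep, an aminopeptidase, 1700112E06Rik is Lrmda, C530008M17Rik is Cracd, a regulator of actin capping, and 1810011O10Rik is Tcim. Names of the 3 kinds are common in the genome as well: 5455 of 26220 genes with a curated transcript carry one (20.8%), against 191 of the 1002 nearest genes of all peaks in the same table (19.1%). For 2 microRNA genes, Mir7652 and Mir8099-1, the table places the gene on chromosome 11 and 3, while their peaks were on chromosome 1 and 12. The distances and annotations of those 2 peaks therefore hold only for the placement in the deposited annotation.

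**Figure D2:**
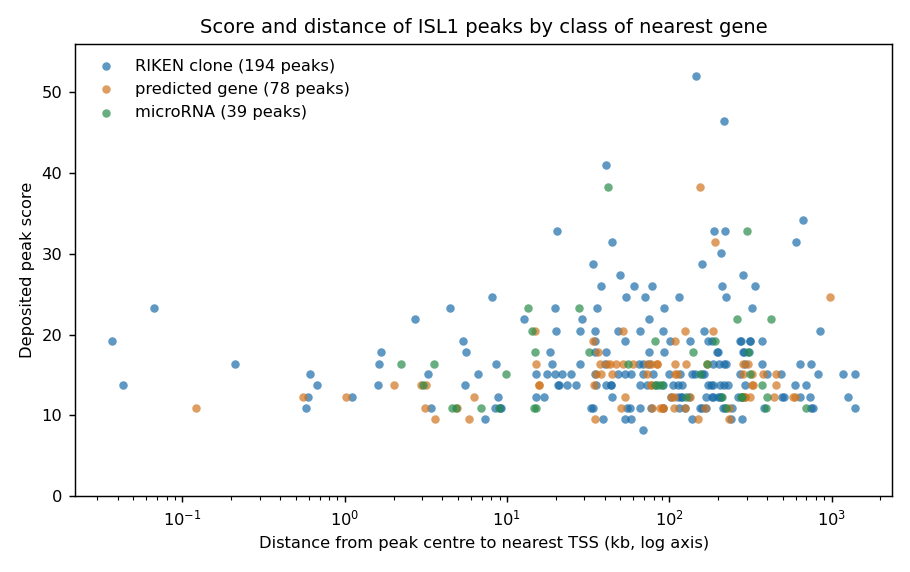
Deposited score of each of the 311 peaks against its distance to the nearest TSS (log axis), coloured by class of nearest gene. The highest peaks, 52.0 and 46.5, are RIKEN clone peaks beyond 100 kb, and the 10 peaks within 1 kb reach at most 23.3.

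The highest peak, of score 52.0 (36.8 to 71.4 if steps are tags, exact Poisson 95% interval), was 147 kb downstream of the noncoding 2310008N11Rik at chr8:27788282-27788426 (mm9, as are all peak positions). In the gene order of the RefSeq table this gene stands between Thap1 and Zfp703, a zinc-finger corepressor gene. The next, of 46.5 (32.2 to 65.0), lay on an LTR element 216 kb downstream of 3830408C21Rik at chr13:108028605-108028749, a gene between Kif2a and Zswim6. Its second peak was lower, at 16.4. Gene order, here and below, counts only coding genes with a curated coding transcript and skips those with RIKEN, predicted or microRNA names.

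The other 8 of the 10 highest peaks were all intergenic and listed under noncoding genes, named here with both coding neighbours in that gene order. Gm6260, between Pkn2 and the LIM-only gene Lmo4, had 1 peak of 38.3 at 154 kb upstream (chr3:143528829-143528973). C630043F03Rik, between the corepressor gene Tle1 and Aldoart1, had 2 peaks, 32.8 at 189 kb and 19.2 at 173 kb. Mir6378, between the pluripotency factor gene Sox2 and Atp11b, had 1 of 32.8 at 303 kb upstream (chr3:35124390-35124534). The remaining peaks among the highest were 41.0 under 4930528P14Rik (between Dph6 and BC052040), 38.3 under Mirlet7j (between Stpg2 and Pdha2), 34.2 under 4930556G01Rik and 32.8 under both 4930548K13Rik and 8430436N08Rik (the latter between Tox and Car8). 4930548K13Rik stands between Manea and Epha7, an ephrin receptor gene, and 4930556G01Rik between Epha7 and Map3k7. Their peaks lay 222 kb and 665 kb from their TSSs, in that order. Gene order says nothing of which gene a peak acts on, and distances to these neighbours were not measured.

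Of the 14 peaks above 30, 13 were intergenic and 2 of the 14 lay on repeats; the median distance of the 14 was 190 kb. The 1 intronic peak among them, of 31.5, was listed under 8430431K14Rik and lay in intron 3 of Prkg1, the gene of the cyclic GMP-dependent kinase (chr19:31335091-31335235). Peaks above 30 made up 4.50% here (2.48 to 7.44) and 3.24% of the others (2.30 to 4.42).

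Close to a TSS there were 10 peaks within 1 kb, under 9 genes, and their median score was 13.7 against 15.1 for all 311. 8430436N08Rik, between Tox and Car8 in gene order, had 2 of them: 23.3 at 67 bp upstream (chr4:7487696-7487840) and 12.3 at 593 bp upstream. The same gene held a weak peak of 9.58 in its intron 2 and a strong intergenic one of 32.8 at 20.3 kb downstream, so its 4 peaks lay within 21.1 kb. 2610005L07Rik, which the file describes as a cadherin 11 pseudogene, had 1 of 19.2 at 37 bp upstream (chr8:20020357-20020501). The annotation of that peak names a transcript of another pseudogene, 6820431F20Rik, so which of the copies it belongs to is uncertain. 1600014C10Rik, a coding gene, had 1 of 16.4 at 212 bp downstream (chr7:38968376-38968520).

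The other 6 scored between 10.9 and 15.1. They lay at 8030443G20Rik (15.1, 614 bp downstream, intron 1), 2900009J06Rik (13.7), 4930444M15Rik (13.7, 678 bp upstream), Gm5176 (12.3, 553 bp upstream), B430010I23Rik (10.9, 574 bp upstream) and Gm19466 (10.9, in exon 1 of 3). B430010I23Rik had a second peak of 17.8 at 1.68 kb upstream, inside intron 6 of Mtus1. The peak of 2900009J06Rik, centred 43 bp downstream of the TSS at chr1:129670516-129670660, overlapped the promoter window that RefSeq gives for the gene.

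That window, 250 bases before to 50 after the start, is printed because the peak centre lay on it (chr1:127774005-127774304, GRCm38.p6, minus strand). Peak centres lay within 250 bp before to 50 bp after the TSS at 3 genes, 2610005L07Rik, 8430436N08Rik and 2900009J06Rik, and the RefSeq windows used here matched only the last, whose peak had the lowest score of the 3. Capitals mark CCAAT.
2900009J06Rik promoter: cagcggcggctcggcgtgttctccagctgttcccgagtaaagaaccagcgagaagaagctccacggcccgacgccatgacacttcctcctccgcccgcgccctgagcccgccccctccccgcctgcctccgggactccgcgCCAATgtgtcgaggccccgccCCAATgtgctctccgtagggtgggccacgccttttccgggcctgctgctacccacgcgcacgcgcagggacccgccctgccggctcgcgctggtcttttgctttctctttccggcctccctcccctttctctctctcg

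Its GC content was 69.0%, against a median of 52.7% over 32851 such windows. Of 5 motifs searched on both strands, TAAT (the core of many homeodomain sites), TAATG and CTAATG, each of which contains the one before, were not found in this window. They are held by 58.0%, 26.8% and 7.36% of all windows. CCAAT was found at 2 places and is held by 37.4% of all windows, and GGGCGG, a GC box, at 4 places and by 35.7%. A match is a description of letters only.

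Exon annotations were few. Beside Gm19466, 5031425E22Rik had a peak of 13.7 in its single exon, 1.60 kb from the TSS, and 2810404M03Rik one of 16.4 in exon 5 of 6. Mir3058 was listed for a peak of 10.9 in the 3′ UTR of Ube2n, a ubiquitin-conjugating enzyme gene.

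Among intronic peaks, the name often hid the gene that holds the peak. Of the 97, 31 lay in the gene they were listed under and 64 in another gene; the host transcript of 2 could not be matched. The 31 include the peak of Mir7652, whose host holds only for the deposited placement of that gene. Of the 95 with a matched host, 67.4% lay in another gene (57.0 to 76.6). Among the other peaks of the list 103 of 504 intronic ones with a matched host lay in another gene (20.4%, 17.0 to 24.2). The rules differed slightly: host and listed gene were compared by symbol for the 97 and by gene identifier for the other peaks. The 2 sets differ by the way they were chosen. The 97 include 20 peaks of microRNA genes, which are short, so that a peak kilobases away will mostly lie in another gene. Of all the other peaks, 94.7% were listed under coding transcripts. The gap was not separated from gene length or type. The 64 peaks fell in 45 host genes, 44 of them protein-coding. Of the 45, 37 were the nearest gene of no peak at all, so that they do not appear in a list of nearest genes. The host genes below were picked after their values were seen.

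Hosts that handle ions and second messengers were among them. Kcnma1, which encodes the pore of the large-conductance calcium-activated potassium channel, held 3 peaks of 12.3, 12.3 and 16.4 in intron 18, all listed under Gm10248. The peaks of 12.3 lay within 1 kb of each other. Trdn, which encodes triadin, an anchor of the calcium release complex, held 1 of 12.3 on a repeat in intron 23 under D830005E20Rik. Pde4d, a cyclic AMP phosphodiesterase gene, held 1 of 13.7 in intron 7, listed under Mir1904 at 81.2 kb. The phospholipase gene Plcb1 held 2 in intron 7, of 17.8 and 13.7, under 4930545L23Rik. Prkg1 held 2 under 8430431K14Rik, of 31.5 and 16.4, both in intron 3. Of the 45 hosts, Prkg1 alone held a peak of this kind above 30.

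Hosts that encode transcription factors held peaks of 10.9 to 19.2 in the 4 genes named here. Trps1, a GATA-type zinc-finger repressor gene, held 3 peaks in intron 4 (10.9, 19.2 and 19.2), listed under Mir1907. Sall1 held 1 of 10.9 in intron 3 under Mir8110, Ebf2 1 of 10.9 in intron 9 under 4930438E09Rik, and Foxn3 1 of 15.1 in intron 4 under 4930474N09Rik. Adhesion and matrix hosts included Cadm2, with 26.0 in intron 1 and 12.3 in intron 3 under 1700010K23Rik. Tenm4 held 20.5 and 12.3 under Gm15413, Ctnna2 20.5 and 10.9 under 6330415B21Rik, and Loxl2 23.3 under Mir6950. In all, 12 of the 45 hosts held 2 peaks or more of this kind.

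Genes with several peaks were found in all 3 classes. Of the 203 genes, 67 had 2 peaks or more (33.0%), against 208 of 800 other nearest genes (26.0%), and 18 had 3 or more (8.87% against 9.62%). Another peak of the list lay within 50 kb of 101 of the 311 peaks (32.5%), and of 330 of the 1172 others (28.2%). Joining peaks nearest to these genes at 50 kb gave 44 groups with 99 peaks, of which 8 held 3 peaks or more.

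**Figure D3:**
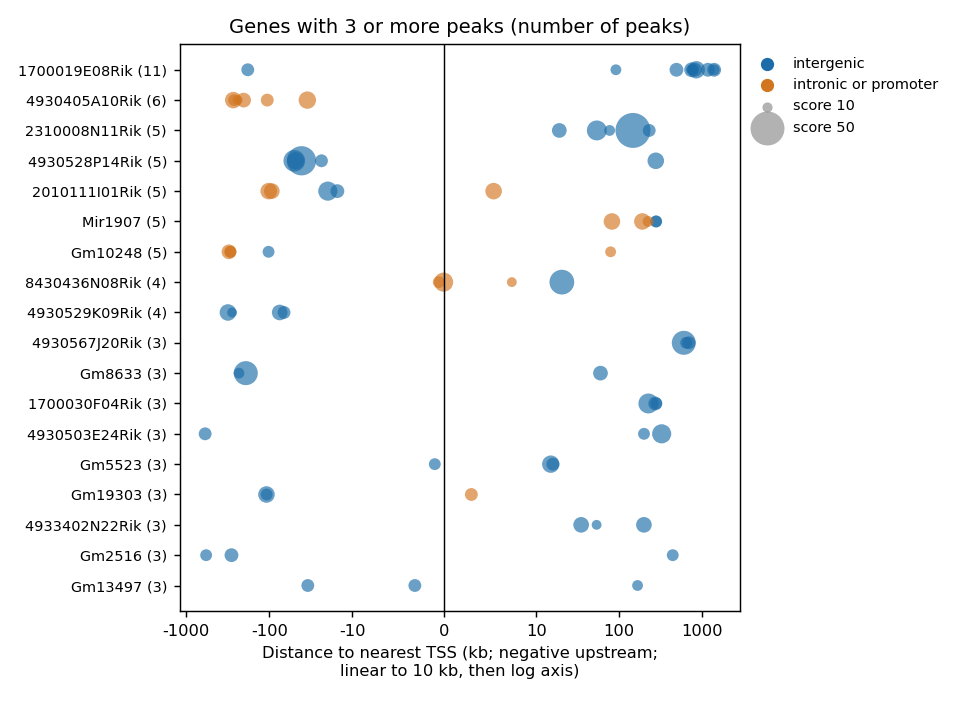
Signed distance of each peak to the TSS for the 18 genes with 3 peaks or more; point area grows with score and colour gives the annotation. The 11 peaks of 1700019E08Rik reach 1400 kb downstream, while the 4 of 8430436N08Rik stay within 21.1 kb.

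1700019E08Rik had the most, 11 peaks, and all 11 were intergenic. It stands between Zeb2, a zinc-finger homeobox gene, and Acvr2a, an activin receptor gene, in gene order, and its peaks spanned 1580 kb (chr2:45370484-46951906). Their scores ran from 10.9 to 20.5 with a median of 15.1, and their median distance was 769 kb; 8 of 11 lay beyond 500 kb. Of the 4 peaks beyond 1 Mb, 3 belonged to this gene. A close group of 3 lay within 22.5 kb, of 10.9, 16.4 and 10.9. Some of the 11 peaks lay within 1 kb of each other: those at 746.7 and 747.2 kb, and those at 1399.3 and 1399.7 kb. Such pairs were counted here as separate peaks.

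2310008N11Rik, whose 52.0 peak is given above, had 4 more over 211 kb, of 24.6 at 53.7 kb, 16.4 at 18.9 kb, 13.7 at 230 kb and 10.9 at 76.7 kb. All 5 were intergenic and downstream of the TSS. 4930528P14Rik had 5 intergenic peaks, of which 4 lay within 26.6 kb of each other at chr2:115193377-115219943 with scores of 13.7, 41.0, 20.5 and 27.4; the fifth, of 19.2, lay 276 kb away from the TSS on the other side. The median over its 5 peaks was 20.5, above the upper quartile of all peaks.

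Aopep, listed as 2010111I01Rik, had 5 peaks over 300 kb (chr13:63046539-63346774). Upstream of its coding transcript lay 2, of 23.3 at 19.6 kb and 15.1 at 15.1 kb. The other 3 lay in its introns, 19.2 and 17.8 in intron 5 and 19.2 in intron 2 of a short transcript, and were listed under noncoding transcripts of the gene. 4930529K09Rik, between Pcdh17 and Diaph3, had 4 intergenic peaks, all upstream, of 9.58 to 19.2.

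Of the 9 genes with 3 peaks, 4930567J20Rik, between Gbe1 and the Slit receptor gene Robo1, had its highest peak of 31.5 on a LINE element at 602 kb and the others, 12.3 and 13.7, at 643 and 696 kb. Gm8633, between Ccer1 and the calcium pump gene Atp2b1, had 31.5, 16.4 and 10.9. 1700030F04Rik, between the chemokine gene Cxcl12 and Zfp637, had 24.6, 15.1 and 12.3 within 55.7 kb, all downstream. Gm5523, a glyceraldehyde-3-phosphate dehydrogenase pseudogene between Xkr9 and Eya1, had 20.5, 13.7 and 12.3 within 17.0 kb; 2 of these lay on SINE elements. 4933402N22Rik, the 1 coding gene among the 9, stands between Speer1 and the semaphorin gene Sema3d and had 17.8, 17.8 and 9.58. The highest peak of the pseudogene 4930503E24Rik (between Tafa2 and Slc16a7) was 23.3, that of Gm19303 (Trps1 and Eif3h) 19.2, that of Gm2516 (Tenm3 and Aga) 15.1 and that of Gm13497 (Rnd3 and Tas2r134) 13.7.

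A stretch of chromosome 14, picked after the values were seen, held 3 of these genes in a row. Between chr14:22910121 and 24220439 (1310 kb) there were 13 peaks, listed under 1700112E06Rik (2), 4930405A10Rik (6) and Gm10248 (5). By the transcript that holds them, 9 lay in introns of Lrmda, the gene once called 1700112E06Rik, 3 lay in introns of Kcnma1 and 1 was intergenic. In Lrmda, intron 2 held scores of 24.6, 19.2 and 20.5, intron 5 held 13.7, 16.4, 9.58, 12.3 and 19.2, and intron 6 held 10.9. All 13 scored 24.6 or less.

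Chromosome 14 had the largest share of such peaks, 32 of 81 (39.5%, 28.8 to 51.0), and 13 of the 32 lay in this stretch. Without it the share was 19 of 68 (27.9%). The lowest share was that of chromosome 17, with 3 of 44 (6.82%, 1.43 to 18.7), and chromosome 10 held the most by number, 35 of 117 (29.9%). These intervals take peaks as independent, which neighbouring peaks are not.

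**Figure D4:**
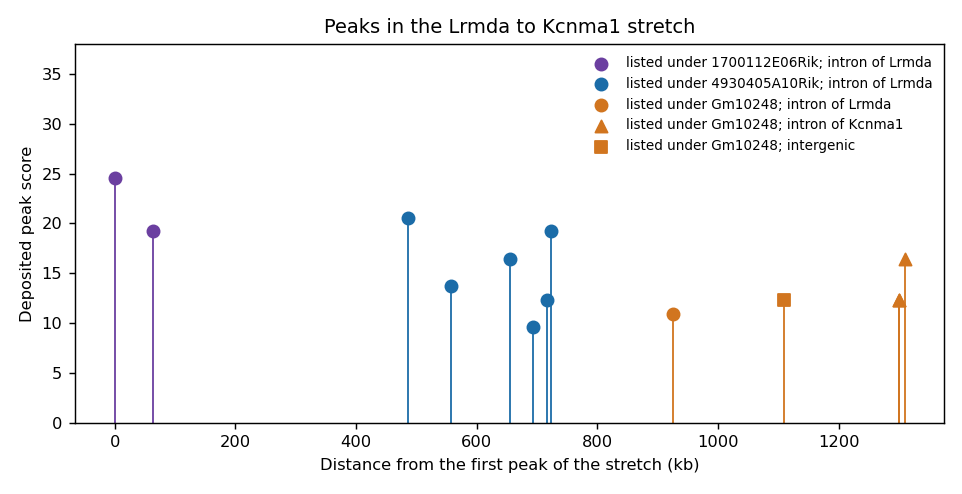
Deposited score of the 13 peaks of the stretch from Lrmda to Kcnma1 by distance from the first; colour gives the gene they are listed under and shape the gene that holds them. The 2 peaks at the left score 24.6 and 19.2, and the 3 in Kcnma1 lie about 1300 kb further on at 12.3 to 16.4.

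Peaks of microRNA genes were divided between introns and intergenic space. Of these 39 peaks, 20 were intronic (51.3%, 34.8 to 67.6), and the 43.3% of the other 1172 peaks lies inside that interval. A further 18 were intergenic and 1 was in a 3′ UTR, and 25 of the 39 lay downstream. Scores ran from 10.9 to 38.3 with a median of 15.1, and distances from 2.23 to 695 kb with a median of 86.4 kb. Within 5 kb there were 5 peaks, all in introns of a host gene: Mir1929 (16.4 at 2.23 kb, in the autophagy gene Atg5), Mir875 (13.7 at 3.05 kb, in Vps13b), Mir1895 (16.4 at 3.56 kb, in Cxxc4, a WNT inhibitor gene), Mir8095 (10.9 at 4.58 kb, in the lipid kinase gene Dgkg) and Mir8110 (10.9 at 4.89 kb, in Sall1).

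**Figure D5:**
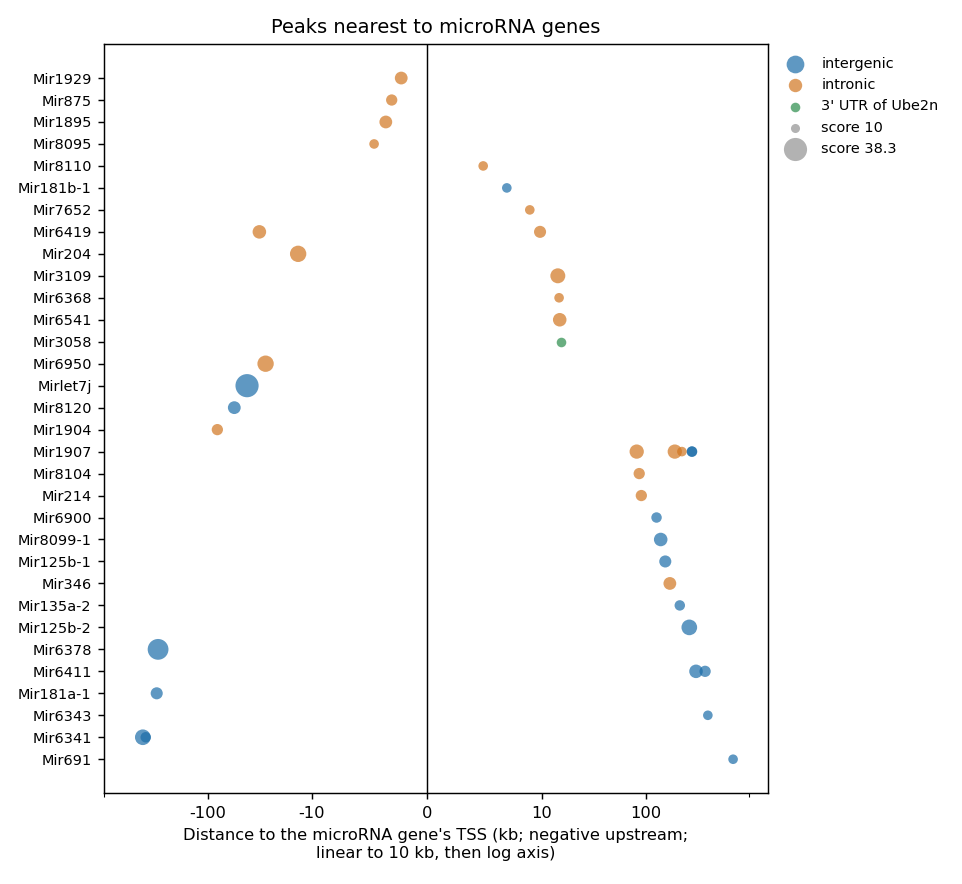
Signed distance of the 39 peaks to the TSS of the 32 microRNA genes, ordered by the nearest peak; point area grows with score and colour gives the annotation. The 5 nearest are intronic, and the highest, 38.3 under Mirlet7j, is intergenic and upstream.

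The peak of Mirlet7j, the highest of the class, lay 42.0 kb upstream at chr3:139649138-139649282. Its interval if steps are tags was 25.5 to 55.4. Mir204, which lies in an intron of the cation channel gene Trpm3, had a peak of 23.3 in intron 6 of that gene, 13.5 kb upstream (chr19:22811519-22811663). This peak lay on a repeat. Mir6419 had 2 in intron 3 of Nebl, a Z-disc gene, of 17.8 at 31.9 kb and 15.1 at 9.82 kb. Mir3109, in Anxa2, had 1 of 20.5 at 14.2 kb, Mir6541, in Wdfy2, 1 of 17.8 at 14.8 kb, and Mir6368, in 2610307P16Rik, 1 of 10.9 at 14.6 kb.

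The genes that share a seed were each listed for 1 peak. Mir181b-1 had a peak of 10.9 at 6.94 kb, and Mir181a-1, its neighbour in the same cluster, 1 of 15.1 at 312 kb on the other side. The 5p sequences of these neighbours start at chr1:137966650 and chr1:137966468 (GRCm38.p6). Each of these peaks therefore lay about equally far from both genes, and the listing only names the nearer one. Mir125b-2 had 1 of 21.9 at 263 kb (chr16:77909264-77909408) and Mir125b-1 1 of 15.1 at 154 kb (chr9:41544112-41544256), both intergenic and downstream. Their intervals if steps are tags, 12.5 to 35.5 and 7.51 to 26.9, overlapped.

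Others of the class lay farther out or were weaker. Mir6341 had 2 peaks, of 21.9 at 425 kb and 12.3 at 398 kb, and Mir6411 2, of 17.8 at 305 kb and 13.7 at 373 kb. Mir1907 had 5, the most in the class, of which 3 are those in Trps1 given above and 2 were intergenic at 12.3 each. Mir346, in the glutamate receptor gene Grid1, had 1 of 16.4 at 171 kb, and Mir8104, in Ppm1h, 1 of 13.7 at 86.4 kb. Mir214 had 1 of 13.7 at 90.6 kb, in intron 7 of Dnm3, whose introns held 4 peaks of the whole list. Mir8120 had 1 of 16.4 at 55.7 kb, Mir6900 1 of 12.3 on a repeat at 127 kb and Mir135a-2 1 of 12.3 at 213 kb. The remaining 4 genes, Mir8099-1, Mir7652, Mir6343 and Mir691, scored 17.8, 10.9, 10.9 and 10.9.

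Within 100 kb, 24 peaks were listed under coding transcripts, of 20 genes. Lrmda had the highest of these, 24.6 at 71.3 kb, followed by Aopep with 23.3. Gm13154, now the zinc-finger gene Zfp985, had 1 of 19.2 on a LINE element at 34.0 kb. D430019H16Rik had 1 of 16.4 in its only intron, 1.62 kb from the TSS (chr12:106693617-106693761). Erich6b (listed as 4930564B18Rik) and Gm4951, an interferon-inducible GTPase gene, had 1 of 10.9 each at 3.38 and 4.94 kb. Cracd had 1 of 13.7 in intron 6 on an LTR element, and Fam241a (5730508B09Rik) 1 of 15.1 in its only intron at 21.8 kb. Tcim, a small regulator of WNT signalling, had 10.9 at 33.9 kb and 9.58 at 58.0 kb on either side. Gm11487 had 2 of 16.4, at 83.9 and 84.2 kb.

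The other 9 of the 20 coding genes had 1 peak within 100 kb each or, for 4933402N22Rik, 2. 4933415F23Rik (Ppp1r14bl) had 16.4, Gm8298 (Aadacl2fm3) 16.4 on a repeat, 4930453N24Rik 15.1, 1500009L16Rik 13.7, 4930467E23Rik 12.3 and F830045P16Rik 10.9. The peak of Gm11837 (15.1) lay in intron 10 of Necab1, and that of Gm9839 (10.9) on a repeat in intron 4 of Khdrbs2. Repeats were named for 8 of the 37 coding peaks (21.6%, 9.83 to 38.2) and for 25 of the 274 noncoding ones (9.12%, 5.99 to 13.2), and these intervals overlap. Among the other peaks of the list they were named for 82 of 1110 coding ones (7.39%, 5.92 to 9.09). Of the other noncoding peaks, 1 of 62 lay on a repeat (1.61%, 0.0408 to 8.66).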

How the data were processed

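ISL1 chromatin immunoprecipitation was measured in 1 library of sorted sinoatrial node cells, with 1 input library that was not analysed here. Per the labels' protocols, chromatin was fixed in 2 steps (2 mM disuccinimidyl glutarate, 30 min, then 1% formaldehyde, 10 min) and sheared to 100 to 400 bp, which limits how finely a site is placed. Bowtie and HOMER with build mm9 are named per the submitters' processing notes; the header of the file names a peak table set against an input, and no source used here gives versions, caller settings, duplicate filters or which input that was. The deposited peak score is the authors' own number per peak, of unstated scaling, and was used to describe and rank peaks within the list. A deposited fraction per peak was read and not used for any result. Distances and annotations are the authors', per the file headers; each peak is 144 bp from start to end.

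Peaks were selected by gene name, split by transcript prefix, and grouped at 50 kb in Python 3.11.15 (pandas 2.3.3, SciPy 1.17.1). Host genes were matched by transcript and symbols by gene identifier to RefSeq (GRCm38.p6), used only for names, gene order and sequences. For the selected peaks only, host transcripts not found there were sought among the list's own pairs of nearest transcript and gene. The score step was sought only in a narrow range set beforehand, and every score is a multiple of it after rounding (0 off). Whole fractions of that step would also divide the scores, so the step is not unique. Intervals are exact at 95% and cover counting error only. The library's read total is not known here. There was no test, since there was 1 library. Named genes were all microRNA genes, genes with 3 peaks or more, those of the 10 highest peaks, of peaks within 1 kb of a TSS or in exons, UTRs or transcript ends, and coding genes with a peak within 100 kb. The members and lists were chosen with earlier results of these data known. Alternatives changed the score threshold, repeats, merging, names and distance limits.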

Additional observations from a re-analysis of the deposited data

How the results depend on the processing

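There was 1 library, so no result has a replicate check; a peak at the lowest score rests on 6 tags if steps are tags, and differences of a few steps are within counting error. Counts were taken as alike within 1.5 times the reported value and medians within their exact 95% interval (score 13.7 to 15.1, distance 74.7 to 112.0 kb). Of 45 values under the alternatives, 29 were alike and 16 moved. At or above the list's median score 166 peaks were left, 145 of them under noncoding genes, 91 within 100 kb and 110 intergenic, with 28 genes of 2 peaks or more, 18 groups and a median score of 17.8. At or above the 75th percentile 90 peaks were left, 82 of them under noncoding genes, 48 within 100 kb and 59 intergenic, with 15 genes of 2 peaks or more, 6 groups and a median score of 20.5. These drops follow from keeping fewer peaks. The median distance stayed within its interval at both thresholds (79.1 and 86.5 kb). A limit of 10 kb in place of 100 kb left 46 peaks, and joining at 10 kb in place of 50 kb left 23 groups. Leaving out repeats, merging peaks within 1 kb and keeping only names still of the 3 kinds in the RefSeq table moved no value past these limits. No paired analysis was possible because the list comes from 1 library. A RefSeq start site or host may differ from the mm9 annotation of the file, and gene spacing was not corrected for.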
